A study of Mus musculus with 4 samples.

Results

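The 10 genes described here encode immediate early transcription factors: Egr1, Egr2, Egr3, Fos, Fosb, Jun, Junb, Atf3, Nr4a1 and Myc. A probe belonged to a gene when the array named it by a RefSeq or Ensembl transcript of that gene, and each of the 10 genes had 1 such probe, out of 55681 probes and 21655 genes in all. This rule uses no measured value. The 10 genes and the other gene lists were, however, chosen with earlier results of these data known. The shares of all genes given beside their counts are therefore descriptive.

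Immediate early genes are switched on from preexisting transcription factors, without new protein synthesis, when a cell receives a growth factor, stretch, calcium or stress signal. Their products are short-lived, bind the promoters of later genes, and are followed by feedback that shuts the signal off. In the heart, the first hours of pressure overload are the textbook setting for Fos, Jun, Egr1 and Myc induction, whereas the hearts examined here had been overloaded for weeks.

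Hearts were taken from male C57BL/6J mice after transverse aortic constriction (TAC), a surgical narrowing of the aorta that raises the pressure against which the left ventricle pumps, or after a sham operation, which served as control. The study took 2 weeks as the hypertrophic response and 8 weeks as the heart failure phase, and the labels name no other treatment or allele. By the sample labels, mice were 10 weeks old at the earlier harvest and 16 weeks old at the later one, which is younger than the methods' age at surgery would allow. Each of the 4 conditions was 1 one-color Agilent microarray loaded with RNA mixed from 4 to 6 mice, 500 ng per mouse, so the spread between mice was not measured and no test between conditions was possible. Every fold change is the ratio of a pair of pools.

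All 4 arrays lay on 1 slide and were read in 1 scan. The signal of a spot was divided by the 75th percentile of its array, which ranged from 206 to 248, and this quotient is called the relative signal. By the flag that the scanner software sets, 54.7% to 58.5% of probes per array were well above background. The tissue label was checked with cardiomyocyte genes: all 6 (Myh6, Actc1, Tnnt2, Tnni3, Ryr2 and Myl2) were well above background on every array. The 4 hypertrophy genes Nppa, Nppb, Myh7 and Acta1 each passed 2-fold after TAC at both times, with log2 changes from 1.03 to 3.09 at 2 weeks and from 1.94 to 3.69 at 8 weeks. The only available error is the noise within an array. For a pair of spots of the same probe, the SD of the log2 ratio was 0.114 for brighter spots and 0.317 for spots under 0.25 of the 75th percentile, so that 2 SD correspond to 1.17-fold and 1.55-fold. That noise leaves out the differences between mice, pools and hybridizations. In whole-heart RNA, a change in the number of expressing cells and a change in RNA per cell cannot be told apart.

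Most of the 10 genes had a higher signal after TAC, with a larger median change at 8 weeks than at 2 weeks. Egr2 had a large rise at both times. The measured changes of Egr1 and Egr2 were smaller at 8 weeks, by log2 0.15 and 0.48. Each of these changes has an SD between spots of 0.114 for Egr1 and 0.317 for Egr2. With another background correction, normexp with an offset of 50, the changes of Egr2 were nearly equal, at log2 1.36 and 1.31. At 2 weeks 1 of the 10, Egr2, was over 2-fold higher, against 1.70% of all genes. At 8 weeks 4 of the 10 were over 2-fold higher, namely Egr2, Fos, Atf3 and Myc, against 2.32% of all genes. None of the 10 was over 2-fold lower at either time, against 0.840% and 1.46% of all genes. With a threshold of 1.5-fold, 3 of the 10 were higher at 2 weeks and 5 at 8 weeks, against 4.79% and 5.15% of all genes. Egr2 was over 2-fold higher at both times, as were 0.554% of all genes. The median log2 change of the 10 genes was 0.36 at 2 weeks and 0.71 at 8 weeks, while the median of all genes was -0.049 and -0.084. Egr2 and Atf3 were over 3-fold higher at 8 weeks, against 1.10% of all genes. With normexp background correction and an offset of 50, these 2 were the only members over 2-fold at 8 weeks, as Fos then had a log2 change of 0.74 and Myc of 0.27. At 2 weeks Atf3 and Myc had log2 changes of 0.50 and 0.19 with that correction, under the 1.5-fold threshold that both passed without it.

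Of the 10 genes, 8 were well above background on all 4 arrays, compared with 65.8% of all genes. Myc was so on 3 arrays and Egr3 on none. Among the 8, all had their highest relative signal on the TAC array at 8 weeks, where 31.9% of the genes measured on all 4 arrays also had theirs. Among the same 8, 7 were higher after TAC than sham at both times, compared with 33.3% of such genes, and Junb was the exception. The lowest relative signal lay on the sham array at 2 weeks for 6 of the 8. The share of all genes with that pattern was not counted, so this count has nothing to be judged against. Fos had its lowest on the sham array at 8 weeks and Junb on the TAC array at 2 weeks.

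**Figure D1:**
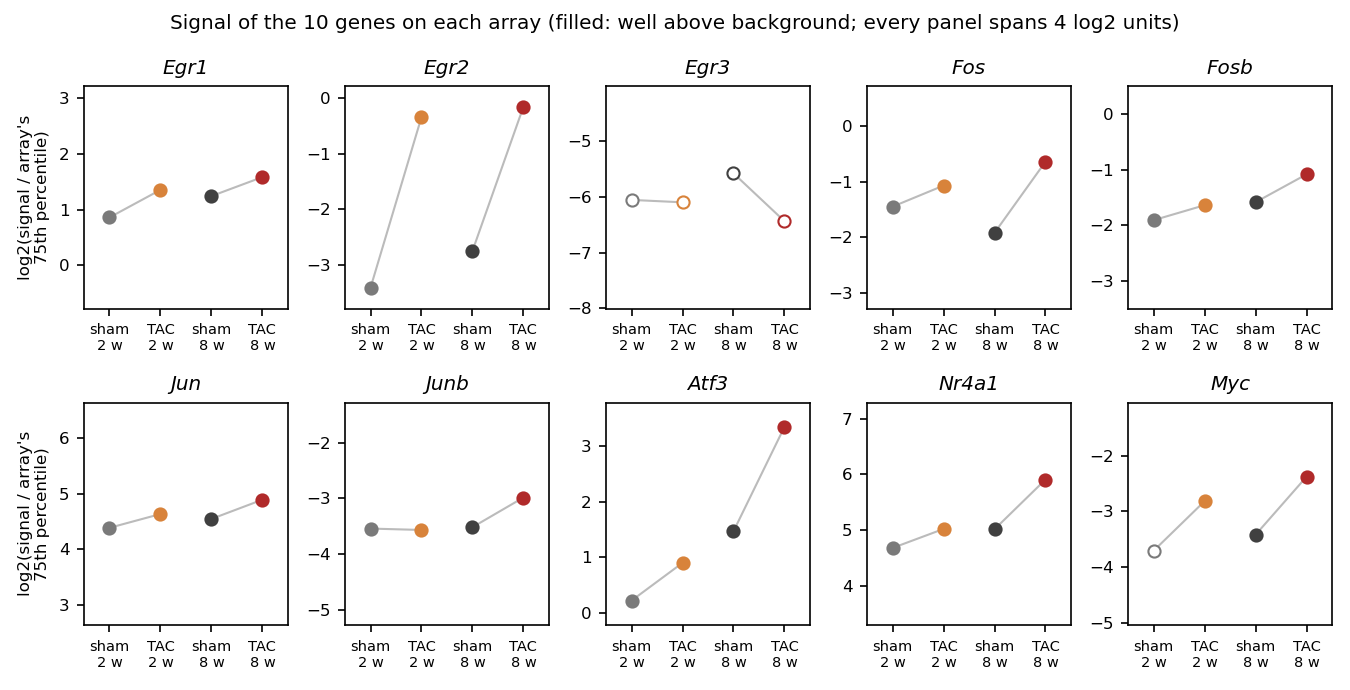
Log2 relative signal of the 10 genes on the 4 arrays, 1 panel per gene, each panel spanning the same 4 log2 units, with a line joining the sham and TAC arrays of one time. Open points were not well above background; Egr2 has the steepest step from sham to TAC at both times, and the 8 genes measured on every array all peak on the TAC array at 8 weeks.

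Promoter sequence is shown for Egr2, Fos, Atf3 and Nr4a1, which are 4 of the 5 members over 1.5-fold higher at 8 weeks. Windows from 250 bases before to 50 bases after the annotated start of the array's transcript were used from RefSeq's table (GRCm38.p6) for 7 of the 10 genes, and not for Egr1, Egr3 and Myc. The printed part is the 250 bases before the start, 5′ to 3′ on the coding strand. Egr2 lies on the plus strand of chr10:67537619-67537868, Fos on the plus strand of chr12:85473640-85473889, Atf3 on the minus strand of chr1:191183334-191183583 and Nr4a1 on the plus strand of chr15:101266596-101266845. Capitals mark the CArG box, the letters bound by serum response factor, together with TGACG on either strand, the half-site of the cAMP response element, and TATAAA.
Egr2: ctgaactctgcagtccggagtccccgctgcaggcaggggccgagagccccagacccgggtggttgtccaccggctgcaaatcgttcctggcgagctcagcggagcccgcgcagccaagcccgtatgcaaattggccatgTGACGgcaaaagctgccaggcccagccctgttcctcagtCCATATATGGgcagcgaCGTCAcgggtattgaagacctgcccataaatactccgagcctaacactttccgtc
Fos: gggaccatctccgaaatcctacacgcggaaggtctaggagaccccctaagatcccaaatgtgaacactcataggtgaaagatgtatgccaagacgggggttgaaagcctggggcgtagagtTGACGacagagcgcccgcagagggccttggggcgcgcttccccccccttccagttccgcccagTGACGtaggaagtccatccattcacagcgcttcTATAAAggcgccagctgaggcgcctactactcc
Atf3: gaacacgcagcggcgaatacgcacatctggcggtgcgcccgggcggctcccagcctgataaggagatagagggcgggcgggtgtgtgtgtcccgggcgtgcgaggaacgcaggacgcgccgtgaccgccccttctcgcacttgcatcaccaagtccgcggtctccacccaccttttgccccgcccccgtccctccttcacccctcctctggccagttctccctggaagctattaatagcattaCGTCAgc
Nr4a1: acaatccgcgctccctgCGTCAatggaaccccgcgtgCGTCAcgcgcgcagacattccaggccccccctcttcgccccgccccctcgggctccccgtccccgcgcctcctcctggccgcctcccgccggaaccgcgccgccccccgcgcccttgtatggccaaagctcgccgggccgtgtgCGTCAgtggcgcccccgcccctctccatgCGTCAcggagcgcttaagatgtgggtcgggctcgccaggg

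In the Egr2 window the CArG box covered bases 179 to 188, which is 72 to 63 bases before the start, and a TGACG stood on each side of it. It was the only CArG box among the 7 windows, and 1.63% of the 32817 windows of the same length in the table hold one. Egr1, Egr3 and Myc were not searched, nor were bases outside the windows, so CArG boxes there would be missed. No window was found for Egr3 and Myc, whereas Egr1 was left out without a recorded reason. Whether a CArG box sets Egr2 apart from the unsearched members, Egr1 among them, was therefore not tested. Nor was a link between the box and the size of the Egr2 change tested. TGACG on either strand was present in 6 of the 7, compared with 20.8% of all windows. Nr4a1 had 4 such matches, Egr2 and Fos 2 each, and Atf3, Fosb and Junb 1 each. The Jun window held none and instead had 2 matches to TGANNTCA, the longer cAMP response and AP-1 element that can contain TGACG, which 14.1% of all windows hold. TATAAA was found in 2 of the 7, those of Fos and Junb, compared with 13.6%. In Fos it covered bases 218 to 223 of the window, before the start. In Junb it covered bases 251 to 256, from the start onward. The EGR motif GCGNGGGCG was in the windows of Fosb and Nr4a1 (5.56% of all windows). The AP-1 motif TGANTCA and the MYC motif CACGTG were in none of the 7 (7.81% and 7.15% of all windows). These matches describe letters in a window and do not show that a factor binds there.

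Among the EGR genes, Egr2 stood out. EGR proteins are zinc finger factors that bind GC-rich promoters. Egr2, also called Krox20, is best known from hindbrain patterning and myelination and is also induced by growth signals. Its relative signal was 0.0940 in sham and 0.788 in TAC hearts at 2 weeks, and 0.149 in sham and 0.897 in TAC hearts at 8 weeks. Both TAC arrays were above both sham arrays, and all 4 were well above background. The signal was 8.39-fold higher after TAC at 2 weeks (log2 change 3.07), the third largest rise among the 14415 genes measured on both arrays, and 6.03-fold higher at 8 weeks (log2 change 2.59), rank 19 of 14577. These changes were 9.67 and 8.17 times the SD between spots. Both sham signals were dim, so the size of the fold is sensitive to the background: with the normexp correction the log2 changes were 1.36 and 1.31.

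Egr1, the factor most often used as a readout of early growth signalling, had a relative signal of 1.81 in sham and 2.56 in TAC hearts at 2 weeks, and of 2.36 and 2.997 at 8 weeks. TAC over sham was 1.41-fold at 2 weeks and 1.27-fold at 8 weeks, under the 2-fold threshold. The sham array at 8 weeks was closer to the TAC array at 2 weeks than to the sham array at 2 weeks, so the Egr1 difference between the 2 sham pools (log2 0.38) was about as large as its TAC differences (log2 0.50 and 0.34). Egr3, the family member tied to muscle spindles and lymphocyte activation, gave relative signals of 0.0151, 0.0146, 0.0210 and 0.0115 on the sham and TAC arrays at 2 weeks and the sham and TAC arrays at 8 weeks. None of these was well above background, so no fold is given.

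The AP-1 genes Fos, Fosb, Jun, Junb and Atf3 encode leucine zipper proteins that pair with each other. None of the 5 was over 2-fold higher at 2 weeks, against 1.70% of all genes. At 8 weeks 2 were, Fos and Atf3, against 2.32% of all genes. With the normexp correction Fos had a log2 change of 0.74 at 8 weeks, under the threshold. The median log2 change of the 5 was 0.27 at 2 weeks and 0.53 at 8 weeks.

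Atf3, a stress-induced member of the family that often acts as a repressor, had relative signals of 1.16 in sham and 1.86 in TAC hearts at 2 weeks, and of 2.76 and 10.1 at 8 weeks. The 4 arrays fell in the order sham 2 weeks, TAC 2 weeks, sham 8 weeks, TAC 8 weeks, so the sham pool at 8 weeks exceeded the TAC pool at 2 weeks. TAC over sham was 1.60-fold at 2 weeks (log2 0.68) and 3.67-fold at 8 weeks (log2 1.88), which was rank 51 of 14577 genes. The change at 8 weeks was 16.4 times the SD between spots, and under the alternatives tried it stayed between log2 1.78 and 2.04.

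Fos, the classical partner of JUN proteins, was printed in 10 spots on each array, of which 9 or 10 were kept. Its relative signal was 0.367 in sham and 0.477 in TAC hearts at 2 weeks, and 0.265 and 0.643 at 8 weeks. The sham pool was lower at 8 weeks than at 2 weeks and the TAC pool higher, so that the gap widened from both sides. TAC over sham was 1.30-fold at 2 weeks (log2 0.38 ± 0.06, SE over spots) and 2.43-fold at 8 weeks (log2 1.28 ± 0.04, SE over spots). At 8 weeks the processed signals of single spots ran from 54.8 to 64.6 on the sham array and from 145 to 179 on the TAC array, with no overlap. At 2 weeks they ran from 66.4 to 87.0 and from 84.7 to 106.6, with overlap at the edge. The TAC pool at 8 weeks was 1.75-fold above the sham pool at 2 weeks. The repeated spots show how precisely each pool was measured, not how the pools of other mice would vary.

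**Figure D2:**
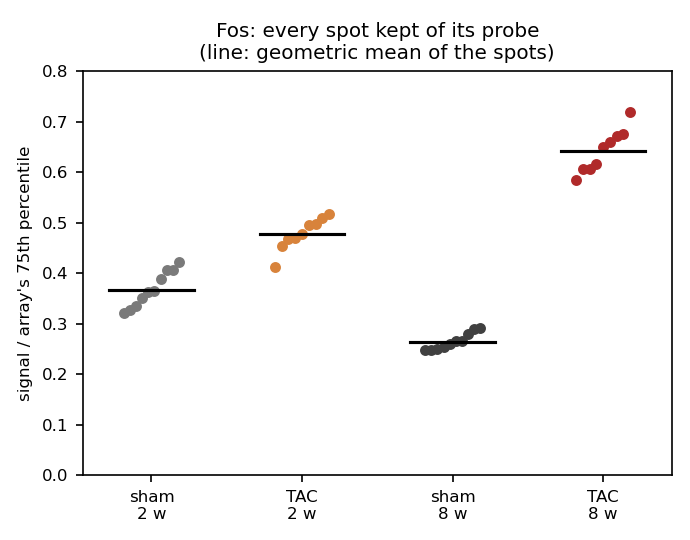
Relative signal of each kept spot of the Fos probe (y axis, linear, from 0) on the 4 arrays, with a line at the geometric mean. The spots of sham and TAC separate fully at 8 weeks and touch at 2 weeks, and the sham array at 8 weeks is the lowest of the 4.

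Fosb, a Fos relative known for its stable splice form in brain, had relative signals of 0.267 in sham and 0.321 in TAC hearts at 2 weeks, and 0.334 and 0.472 at 8 weeks. The sham array at 2 weeks was the lowest and the TAC array at 8 weeks the highest. TAC over sham was 1.20-fold and 1.42-fold. Jun, the main JUN protein, gave 20.9 and 24.8 at 2 weeks and 23.4 and 29.7 at 8 weeks. Its whole range over the 4 arrays was log2 0.51, the narrowest of the 8 genes measured on every array, with TAC over sham at 1.19-fold and 1.27-fold. Junb, a JUN protein that can restrain proliferation, gave 0.0857 and 0.0843 at 2 weeks and 0.0872 and 0.126 at 8 weeks, so that 3 arrays were nearly level and the TAC array at 8 weeks was above them. Junb was dim, and its log2 changes of -0.025 and 0.53 were both within 2 SD of the noise between spots. Its change at 2 weeks took either sign, from -0.094 to 0.052, under the alternatives, and its change at 8 weeks was 0.026 with the normexp correction.

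Nr4a1, an orphan nuclear receptor also called Nur77, had relative signals of 25.6 in sham and 32.4 in TAC hearts at 2 weeks, and 32.3 and 59.9 at 8 weeks. The TAC pool at 2 weeks and the sham pool at 8 weeks had nearly the same signal, and the TAC pool at 8 weeks stood above the other 3. TAC over sham was 1.27-fold at 2 weeks and 1.86-fold at 8 weeks (log2 0.34 and 0.89), the latter rank 337 of 14577 and 7.81 times the SD between spots. Without normalization between arrays its log2 change at 8 weeks was 1.06, past the 2-fold threshold.

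Myc, the basic helix-loop-helix factor that drives ribosome and metabolic genes, was dim and had 2 spots per array. Its relative signals were 0.0765 in sham and 0.142 in TAC hearts at 2 weeks, and 0.0934 and 0.192 at 8 weeks. Both TAC arrays were above both sham arrays. The sham array at 2 weeks was not well above background, and the rise after TAC at 2 weeks was 1.86-fold by the measured signals. With the normexp correction the log2 change at 2 weeks was 0.19, so the size of that rise is uncertain. At 8 weeks the rise was 2.06-fold (log2 1.04 ± 0.04, SE over spots). That SE rests on 2 spots per array, and the noise between dim spots gives an SD of 0.22 for this log2 ratio. The change at 8 weeks lay just over the 2-fold threshold and its log2 value ran from 0.27 to 1.21 under the alternatives.

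**Figure D3:**
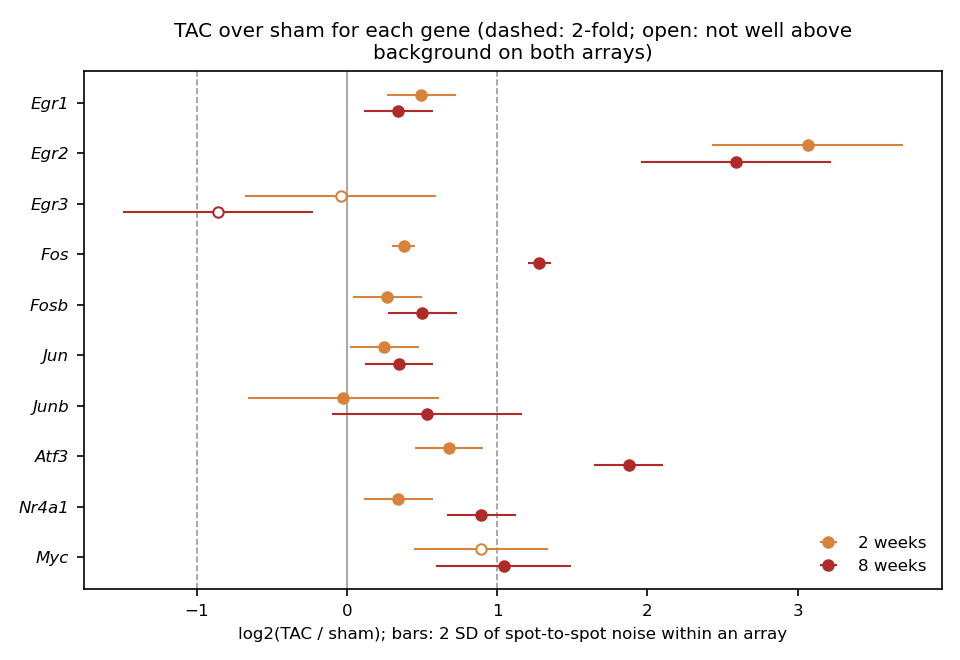
Log2 ratio of TAC to sham (x axis) for each of the 10 genes at 2 weeks and at 8 weeks, with bars of 2 SD of the noise between spots on an array. Egr2 is past the dashed 2-fold line at both times; Fos and Atf3 cross it between 2 and 8 weeks, and Myc lies at the line.

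The pools of the same operation were next compared between times. These ratios share arrays with the TAC comparisons above and are therefore given beside them rather than as further evidence. In sham hearts, 1 of the 10 genes was over 2-fold higher at 8 weeks than at 2 weeks (1.16% of all genes), and in TAC hearts also 1 (1.17% of all genes). In both it was Atf3, which was 2.37-fold higher in sham hearts (log2 1.25, rank 23 of 14351) and 5.44-fold higher in TAC hearts (log2 2.44, rank 8 of 14752). Its TAC change was larger at 8 weeks than at 2 weeks by 1.198 on the log2 scale. Fos differed in direction, with a log2 ratio of -0.47 in sham and 0.43 in TAC hearts, and its TAC change was larger at 8 weeks by 0.90. For Nr4a1 the ratios were 0.34 in sham and 0.89 in TAC hearts. Among the 8 genes measured on every array, Egr2 had the widest margin of sham over TAC hearts, 0.66 against 0.19, so that its TAC change was smaller at 8 weeks by 0.48. With the normexp correction the TAC changes of Egr2 were 1.36 and 1.31, so the size of that margin depends on the background correction. Of the 8 genes measured on all arrays, 7 were higher in the older sham pool and 8 in the older TAC pool, against 56.1% and 54.7% of all genes measured on all 4 arrays. The TAC change was larger at 8 weeks for 6 of the 8, against 51.2%. Time after surgery and age at harvest changed together in these pools and cannot be told apart.

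**Figure D4:**
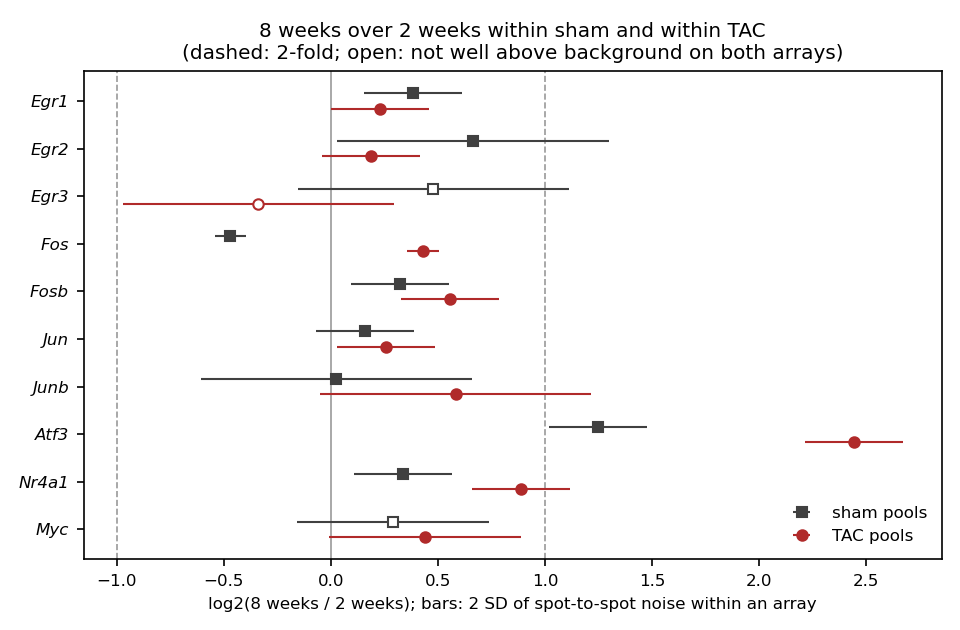
Log2 ratio of 8 weeks to 2 weeks (x axis) within the sham pools and within the TAC pools for the 10 genes, with bars of 2 SD of the noise between spots. Atf3 is past the 2-fold line in both, at 1.25 and 2.44, and Fos is below 0 in sham and above 0 in TAC hearts.

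Other genes of the immediate early response were read from lists. For the 2-fold counts below, the shares of all genes were 1.70% higher and 0.840% lower at 2 weeks. At 8 weeks the shares were 2.32% and 1.46%. The same shares apply to the heat shock, clock and cell type counts further below. Of 22 further transcription factors of this class, such as KLF, MAF and C/EBP family members, none was over 2-fold higher at 2 weeks and 2 were at 8 weeks. Maff, a small MAF protein, was 2.13-fold higher at 8 weeks. Cebpd, a C/EBP factor of the acute phase response, was 2.04-fold higher at 8 weeks. At 2 weeks their log2 changes were 0.11 and 0.27. With the normexp correction 1 of the 22 passed at 8 weeks. The median of the list was 0.24 at 2 weeks and 0.40 at 8 weeks. Nr4a2 and Nr4a3, named after their values were seen because they are the paralogs of Nr4a1, changed by log2 0.45 and 0.94 at 8 weeks, under the threshold, and Nr4a2 was over 2-fold higher at 8 weeks than at 2 weeks in both sham (2.22-fold) and TAC hearts (2.61-fold).

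Of 20 early response genes that encode secreted or cytoplasmic proteins rather than transcription factors, 1 passed 2-fold at 2 weeks and 10 did so at 8 weeks, 6 of them also with the normexp correction. The median log2 change of the 20 was 0.36 and 0.77, and at 8 weeks it was 0.43 with the 3 genes not well above background in sham hearts at their lower bound, and 0.40 over the 16 genes measured on both arrays. Ccn2, the matricellular protein also called CTGF, rose 1.79-fold at 2 weeks and 4.43-fold at 8 weeks. Ptgs2, the inducible cyclooxygenase, Il6, the acute phase cytokine, and Ereg, an EGF receptor ligand, were well above background only on the TAC array at 8 weeks within their pair. They were at least 1.63-fold, 1.32-fold and 2.45-fold higher there, with no allowance for noise. The value of Il6 is under the 1.55-fold of 2 SD between dim spots. With both arrays required to be well above background, 7 remained at 8 weeks, Ccn2 among them. Thbs1, a matricellular protein named to complete the count, was the gene past the threshold at 2 weeks, at 3.95-fold, and had 4.04-fold at 8 weeks.

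Of 28 feedback regulators, which damp kinase or cytokine signalling or destabilize early transcripts, none was over 2-fold higher at 2 weeks and 2 were at 8 weeks, while 1 was over 2-fold lower at 8 weeks. Socs3, an inhibitor of cytokine signalling, was 2.53-fold higher at 8 weeks, and Btg2, an antiproliferative gene, 2.09-fold. Spry2, an inhibitor of receptor tyrosine kinase signalling, was dim on every array and at 8 weeks at least 2.34-fold lower. The phosphatase genes Dusp1 and Dusp6, named here as the usual shut-off of MAP kinases, stood at log2 0.18 and 0.25 for TAC over sham at 2 weeks, then at -0.11 and 0.28 at 8 weeks, and the 2 probes of Dusp1 differed by 0.70 in log2 change at 2 weeks. The median of the list was 0.24 and 0.29.

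The list of 26 upstream kinases and resident factors holds, for example, MAP kinases, serum response factor and CREB. Of them 1 rose over 2-fold at 2 weeks and 1 fell over 2-fold at 8 weeks. Of all genes, 1.70% rose at 2 weeks and 1.46% fell at 8 weeks, so a count of 1 does not set this list apart. The medians of the list were 0.0041 and -0.068. Rps6ka3, the kinase RSK2, was 3.71-fold higher at 2 weeks by the brightest of its 3 probes, but the log2 changes of the probes spread by 1.94 and the median over them did not pass. Rps6ka5, the kinase MSK1 that phosphorylates histone H3 and CREB, was 2.01-fold lower at 8 weeks, with a log2 change of -0.71 at 2 weeks. Of 21 dimer partners and corepressors of the 10 factors, Mxd3, a MAX-binding antagonist of MYC, had a rise of at least 1.62-fold at 2 weeks, no call with the normexp correction, and no gene passed at 8 weeks, with medians of 0.05 and -0.014. Of 16 genes known as MYC targets in ribosome production and growth, none was over 2-fold changed at either time. Their medians were -0.021 and 0.15, and the largest change was in Ccnd2, cyclin D2, at 1.53-fold at 8 weeks.

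**Figure D5:**
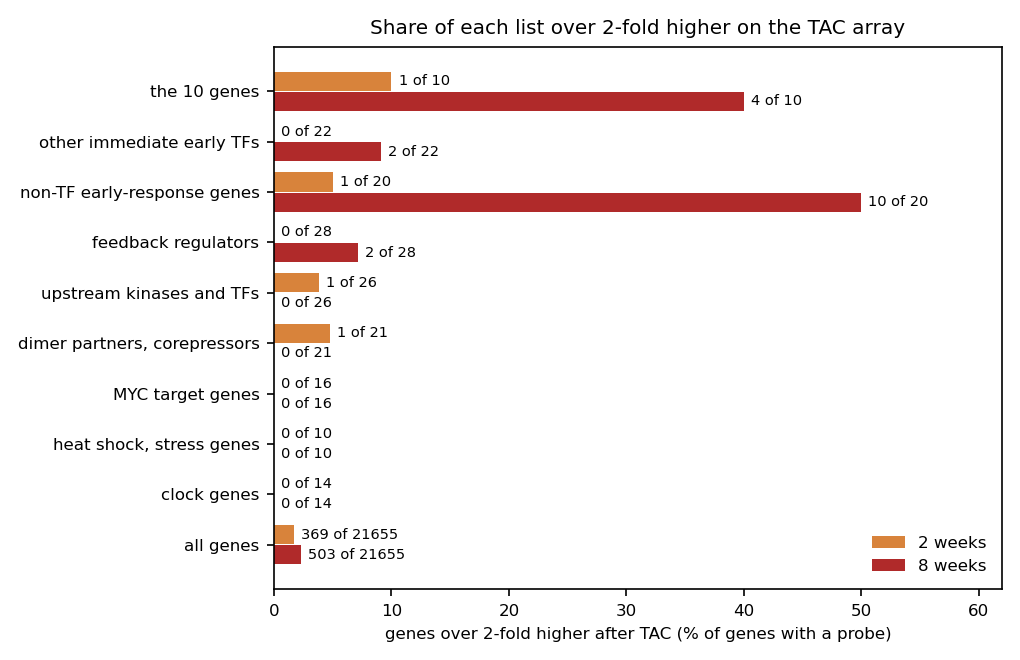
Share of the genes with a probe that were over 2-fold higher on the TAC array than on the sham array (x axis, percent, from 0) at 2 and at 8 weeks, for the 10 genes, 8 other lists of signalling, stress and clock genes, and all genes, with the counts beside the bars. Among the groups drawn, the 10 genes and the early response genes that encode no transcription factor have the longest bars at 8 weeks, with 4 of 10 and 10 of 20.

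Heat shock and clock genes were read on the same arrays. Among 10 heat shock and stress genes with a probe, none was over 2-fold changed after TAC at either time, with medians of -0.054 at 2 weeks and 0.28 at 8 weeks. The largest change was in Hmox1, heme oxygenase 1, at 1.67-fold at 8 weeks, and its 2 probes differed by 0.60 in log2 change at 2 weeks. Between times, however, Hspa1a, an inducible heat shock protein 70 gene named after its values were seen, was 4.71-fold higher at 8 weeks than at 2 weeks in sham and 5.43-fold higher in TAC hearts. Of 14 clock genes, 3 were over 2-fold lower after TAC at 2 weeks and none at 8 weeks, against 0.840% and 1.46% of all genes. Their medians were -0.43 and -0.14. Dbp, a clock output factor, was 2.39-fold lower, Per3, a period gene, 2.28-fold lower and Hlf, a relative of Dbp, 2.05-fold lower at 2 weeks. The part of these differences in the changes of the 10 genes was not tested.

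Marker genes of other cell types moved with TAC in some lists. The 2 granulocyte genes S100a8 and S100a9 were over 2-fold higher at both times, though neither passed at 2 weeks with the normexp correction, and their summed relative signal was 1.17 in sham and 2.66 in TAC hearts at 2 weeks and 0.846 and 3.48 at 8 weeks. Of 5 fibroblast genes, Postn passed at 2 weeks (4.90-fold) and Postn and Col1a1 at 8 weeks (7.59-fold and 2.30-fold). Named to complete the count, Tcf21 was 1.47-fold lower at 8 weeks, and Pdgfra and Dcn had log2 changes of 0.40 and 0.28 then. The list sums were 157 and 193, then 181 and 239.9. Such sums are weighted toward the brightest genes of a list, here Dcn. Of 5 macrophage genes none passed, with sums of 32.0 and 39.7, then 32.9 and 41.2. The 6 cardiomyocyte genes summed to 7015 and 6581, then 6687 and 5908, and none was over 2-fold changed, the largest change being in Ryr2, 1.55-fold lower at 8 weeks.

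Endothelial (4 genes), smooth muscle (3) and erythroid genes (2 with a probe) had no member over 2-fold changed. Cdh5 had the largest endothelial log2 change, 0.33 at 2 weeks, Acta2 the largest of smooth muscle, -0.40 at 8 weeks, and Hba-a1 the largest erythroid one, -0.28 at 2 weeks. Of 3 lymphocyte genes, Ms4a1, which did not pass with the normexp correction, was 2.20-fold higher at 2 weeks by its measured signals. Its sham signal at 2 weeks was not well above background. The list sums were 5.87 and 6.14, then 5.26 and 4.71. Of 3 atrial genes, Myl7 and Sln were at least 3.64-fold and 2.55-fold lower at 8 weeks. The list sums, to which these dim genes add little, were 3.21 and 3.23, then 4.14 and 2.76. Of 3 adipocyte genes none passed, and Cidea, the one well above background, had a log2 change of 0.42 at 8 weeks. Whether the changes of the 10 genes came from the heart muscle cells or from cells of these other lists was not tested.

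Genes with the pattern most like that of the 10 were sought over the 4 arrays. The median centred log2 profile of the 8 genes measured on every array was -0.38, -0.033, -0.092 and 0.55 for sham and TAC at 2 weeks and sham and TAC at 8 weeks. Of the 8, Fosb lay closest to this profile, at a Euclidean distance of 0.12, and Egr2 farthest, at 2.37. Among 14235 other genes measured on all 4 arrays, the 5 nearest were Dapp1, an adaptor of phosphoinositide signalling, at a distance of 0.03, Crispld2, a secreted protein, at 0.05, Aif1, the macrophage calcium-binding protein IBA1, at 0.06, Gabra3, a GABA receptor subunit, at 0.07, and Foxc2, a forkhead factor, at 0.08. With 4 arrays, a small distance says only that the signals had the same shape in these pools.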

How the data were processed

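The authors hybridized Cy3-labeled cRNA from pooled total RNA to Agilent SurePrint G3 Mouse GE 8x60K arrays and deposited the scanner output. The processed signal in it is an intensity, background-subtracted and detrended by the scanner software and not yet normalized. The file headers name Agilent Feature Extraction 10.7.3.1 and probe annotation on mm9, whereas the submitters' processing notes name version 9.1. The study used GeneSpring GX11 software for its own analysis. A deposited series table gives these intensities multiplied by 1 factor per array.

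From the scanner files, outlier spots were left out, log2 signals were averaged over a probe's spots, and each array's 75th percentile (non-control probes) was subtracted. A gene was represented by its brightest probe. It counted as over 2-fold higher when the ratio exceeded 2 and the brighter array was well above background, and as lower by the mirror rule. Where the dimmer array was not well above background, the fold is given as "at least" and uses as denominator the dimmest signal flagged well above background there. Such a fold makes no allowance for the noise between spots, where 2 SD correspond to 1.55-fold for dim spots. Where the probe's own signal was larger than that, as for Myc, Ms4a1 and Spry2 at 2 weeks, the measured ratio is given and is no bound. With 1 array per condition no statistical test between conditions was run. The gene lists were written by hand from general knowledge. The text names every member, up to 4 genes of each other list over 2-fold changed at either time (otherwise the one with the largest change), and the 5 genes nearest in profile; further names are given as chosen after their values were seen or complete a count. The members and lists were chosen with earlier results of these data known. Hspa1b and Hbb-b1 had no matched probe. The step that makes the calls was checked on simulated data. Software was pandas 2.3.3, numpy 2.4.6 and matplotlib 3.10.9 under Python 3.11.15, and limma 3.58.1 in R 4.3.3 for the normexp background correction. Precision was limited by the number of arrays. Of the genes counted in the lists, 1 is not reported here by name.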

Additional observations from a re-analysis of the deposited data

Results flagged for a closer look

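Among the genes named by the rule, 3 had measured log2 differences of opposite sign at 2 and 8 weeks that both exceeded the SD between dim spots, 0.317. The differences between times were not tested, and each of the 3 genes was below the background limit on at least 1 array of each pair, so the log2 values are differences of measured signals and not sizes of change. Spry2, the receptor tyrosine kinase inhibitor, had 0.42 at 2 weeks and -1.68 at 8 weeks, with a measured ratio of 1.34-fold higher and a bound of at least 2.34-fold lower. Ereg, the EGF receptor ligand, had -0.34 at 2 weeks, when neither array was well above background and no direction can be read, and 3.36 at 8 weeks, with a bound of at least 2.45-fold higher. Myl7, the atrial myosin light chain, had 0.67 and -2.49, with bounds of at least 1.30-fold higher and at least 3.64-fold lower. The first of these bounds is under the 1.55-fold of 2 SD between dim spots.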

How the results depend on the processing

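The alternatives were scaling to the median, quantile normalization, no normalization, normexp background correction with an offset of 50, the deposited table, outlier spots kept, the median over a gene's probes, other filters on dim probes and thresholds of 1.5-fold and 3-fold. The count of members over 2-fold changed at 2 weeks was 3 with 1.5-fold. At 8 weeks it was 2 with normexp and 2 with 3-fold. The median log2 change of the members at 8 weeks was 0.34 with normexp, which shrinks the ratios of dim probes by construction, and 0.89 over members well above background on both arrays, which leaves out Egr3. Between the sham pools, 2 members were over 1.5-fold different and 0 over 3-fold. Between the TAC pools, 2 were different without normalization and 2 at 1.5-fold. Of all 21655 genes, 576 were over 1.5-fold higher and 346 lower between the sham pools, and 631 and 737 between the TAC pools. The shares of all genes at 3-fold and without normalization are not given for these comparisons. These thresholds between times, and the alternatives for the other gene lists, were chosen after the data were seen. In the 280 recalculated log2 changes of single members, 20 moved by more than the SD between spots with normexp, 10 without normalization and 2 with quantiles, and none of a member past the threshold reversed. Of 418 recalculated list counts, 31 moved by over 1.5 times. Over genes measured on both arrays, the median log2 change without normalization was 0.16 at 8 weeks and 0.30 between the TAC pools, against -0.011 and 0.026 in the reported values, and with scaling to the median it was 0.12 between the TAC pools. Leaving out a replicate was not possible with 1 array per condition. No paired analysis was possible because each condition had 1 array. Signals close to background limit Egr3, Myc, Junb and the sham values of Egr2.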
